A study of Sus scrofa with 8 samples.

Results

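The genes described here encode the connective tissue framework of skeletal muscle: fibrillar collagen I (COL1A1, COL1A2) and III (COL3A1), collagen VI (COL6A1, COL6A3), the laminin chain LAMA2, the collagen chaperone SERPINH1, fibronectin (FN1), SPARC and decorin (DCN). They were chosen by symbol from the platform annotation, and 8 of the 10 had at least 1 spot that names them alone. COL3A1 and COL6A1 had none and were not analysed here. The 8 genes held 18 of the 9984 spots of an array, and 2922 genes were named on it in all.

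The arrays compared skeletal muscle RNA of pigs fed a high energy diet with that of pigs fed a low energy diet, 1 sample of each diet competing on every slide. The 8 slides make 4 couples, and in each couple the same pair of samples was hybridised in both dye orientations. The low and high energy samples were 49 and 40 in couple 1, 61 and 41 in couple 2, 142 and 40 in couple 3, and be and ae in couple 4. High energy sample 40 thus entered couples 1 and 3. The sources used here do not give breed, age, sex, the muscle taken or the composition of the diets. They also do not say whether a sample is a pool or 1 animal. The p-values therefore reflect how these couples vary, part of which may be technical. A ratio within an array gives no level, so neither the tissue label nor the abundance of a gene can be read from these values. In whole muscle RNA, fewer connective tissue cells and less RNA per cell cannot be told apart.

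In muscle, fibroblasts lay down most of the collagen that bundles fibres together. Chains of procollagen fold into a triple helix in the endoplasmic reticulum, where SERPINH1, also known as HSP47, binds the folded helix until it is exported. Outside the cell, fibrillar collagen carries tension, collagen VI forms a beaded network next to the fibre's basement membrane, and laminin containing LAMA2 ties that membrane to the dystrophin complex. Fibronectin, SPARC and decorin are secreted glycoproteins that bind collagen and take part in its assembly. Mutations of LAMA2 or of collagen VI genes cause muscular dystrophies.

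Values are log2 ratios, read as high over low energy. That direction is not stated, and the labels give only samples and dyes. The mean after reversing the sign of the slides with high energy in dye 3 is therefore given as the turned value. Under the reading used here, the turned value is the effect of the dye. A gene's value on a slide is the mean of its spots. Its ratio is limma's mean over couples, in which couples 1 and 3 count less because of their shared sample, with its standard error (SE).

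None of the 8 genes passed limma's test of high against low energy muscle at a Benjamini-Hochberg threshold of 0.05, nor did any other feature (0% of 5025 called). SERPINH1, COL1A2 and COL6A3 had ratios near 0.24 above 0, SPARC, DCN and LAMA2 ratios between -0.16 and -0.25, and COL1A1 and FN1 ratios close to 0. The signs were mixed: 5 genes lay above 0 and 3 below, against 46.4% of all features above 0, and turned, 4 lay above and 4 below, against 47.4% of features above 0. Their median ratio was 0.0083 (turned -0.021), against -0.012 over all features (turned -0.0085). The median size of a ratio was 0.216 for the 8 genes and 0.090 for all features. Turned, the median sizes were 0.087 for the 8 genes and 0.092 for all features. Since the genes were chosen with results known, these differences were not tested. At an unadjusted p under 0.05, limma gave 1 of the 8 genes, SERPINH1, and 3.78% of all features. A simulation with this spread gave 100 of the 5025 features a change of 0.5 log2 and 100 others a change of 1 log2. Of these, limma called 35% and 95%. Those rates hold for that many changed features and would be lower for fewer. Sizes near those seen here were not simulated. Smaller changes are called less often, so differences of the size seen here were mostly not detectable.

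**Figure D1:**
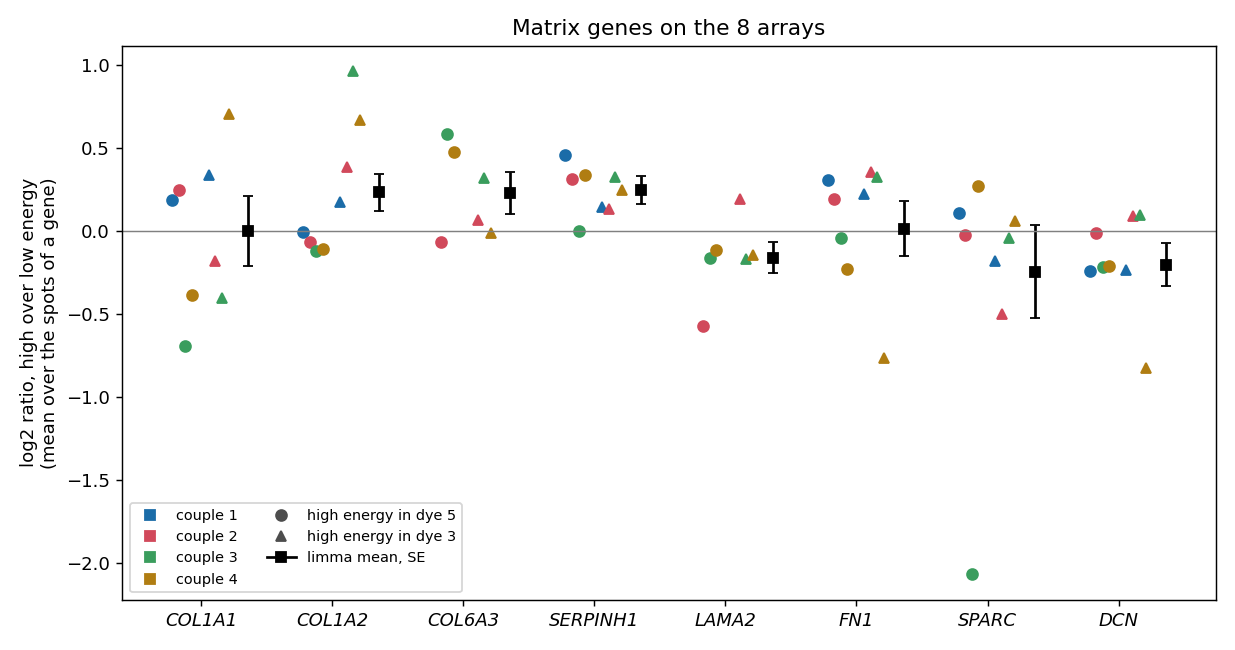
Log2 ratio of each gene on each slide (y axis; mean over the gene's spots), with circles for high energy in dye 5, triangles for high energy in dye 3, colours for the 4 couples, and black squares with bars for limma's mean and SE. SERPINH1 lies above 0 on all 8 slides, the circles and triangles of COL1A2 do not overlap, and 1 slide of couple 3 sets SPARC apart at -2.07.

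SERPINH1 was the only one of the 6 genes present on all 8 slides to lie above 0 on every slide, as 0.797% of the 3640 features measured on all slides did. Its values with high energy in dye 5 were 0.46, 0.32, 0.0013 and 0.34 in couples 1 to 4. In the other orientation they were 0.15, 0.13, 0.33 and 0.25. The orientations overlapped fully, and the couple means of 0.30, 0.22, 0.16 and 0.30 had an SD of 0.065. The ratio was 0.25 ± 0.086 (SE, n = 4 couples; turned 0.040), a 1.19-fold difference with a 95% interval of 0.034 to 0.46 before any adjustment. By limma the unadjusted p was 0.030, which 117 of the 5025 features reached, and the adjusted p was 0.996. Leaving out any 1 couple gave 0.23 to 0.27, and either dye orientation alone 0.29 and 0.21.

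The single spots of SERPINH1 were less even than their mean. The first spot was above 0 on 6 of 8 slides and ran from -0.25 to 0.93, and the second was above 0 on 5 and ran from -0.28 to 0.88. The spots had the same sign on 3 of 8 slides. Fitted alone by limma, the spots had ratios of 0.25 ± 0.13 and 0.25 ± 0.17, with unadjusted p of 0.113 and 0.196. The gene's position above 0 on every slide is therefore a property of the mean of both spots.

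COL1A2, which encodes the alpha 2 chain of collagen I, differed between the dye orientations. Slides with high energy in dye 5 had -0.0022, -0.068, -0.12 and -0.10 in couples 1 to 4, and those with high energy in dye 3 had 0.17, 0.39, 0.97 and 0.67. All slides of one orientation were below 0 and all of the other above it. Of the 6 genes on all slides, COL1A2 was the 1 whose orientations did not overlap, as was the case for 3.93% of features. The couple means of 0.086, 0.16, 0.42 and 0.28 were all above 0, as were those of SERPINH1, which made 2 of 6 genes against 7.47% of features. The ratio was 0.23 ± 0.11 (SE, n = 4), with limma's adjusted p at 0.996. The turned value was -0.31 ± 0.13, with an unadjusted p of 0.064 and an adjusted p of 0.998 in limma. No feature passed for the turned value (0% called), and 2.65% had an unadjusted p under 0.05, COL1A2 and the other 7 genes not among them. If the deposited values are ratios of dye 5 over dye 3, the mean for COL1A2 would thus be lower, not higher, in high energy muscle.

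The annotation gives COL1A2 4 spots in 2 neighbouring pairs, numbers 6117 and 6118 and numbers 6119 and 6120. The pairs gave unlike values. From the first pair alone, which covers 3 couples, the ratio was 0.063 (turned -0.097), and from the second pair alone, with 4 couples, 0.58 (turned -0.67), an alternative chosen after the values were seen. Spot 6119 had 2.55 in couple 3 and 2.57 in couple 4 with high energy in dye 3. Before centring, these values were the logarithms of 41 over 7 and of 6 over 1 in lowest terms. On the same slide of couple 4 its neighbour had -0.20, and in couple 3 the neighbour had no value. Spot 6120 had 1.32 in couple 2 with high energy in dye 3, where its neighbour had no value. With the median over the spots in place of the mean, the ratio of COL1A2 was 0.097 and the turned value -0.15. Single spots lay on both sides of 0 in each orientation, so the split of the slides was a property of the means over spots. In couple 3 the value with high energy in dye 5 came from spot 6120 alone, which had no value in the dye swap.

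COL1A1, the alpha 1 chain that combines with COL1A2 in collagen I, showed no common direction. Its values with high energy in dye 5 were 0.19, 0.25, -0.69 and -0.38 in couples 1 to 4, and with high energy in dye 3 they were 0.34, -0.18, -0.41 and 0.70. It was above 0 on 4 of 8 slides. Couple 3 was low on both slides, with a mean of -0.55, while the other couples had means of 0.26, 0.036 and 0.16. The ratio was 0.0013 ± 0.21 (SE, n = 4; turned -0.14), with a 95% interval of -0.53 to 0.53, and 0.15 without couple 3. In couple 3 the slide with high energy in dye 5 has a value for 1 of the 2 spots of COL1A1, and on the other slide its spots had -1.06 and 0.24. Over the 8 slides, the 2 collagen I chains correlated at r = 0.17, and at -0.50 without the 2 slides farthest from the median of COL1A1.

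COL6A3, the large alpha 3 chain of collagen VI, had no value on either slide of couple 1. Slides with high energy in dye 5 gave -0.066, 0.59 and 0.48 in couples 2 to 4, and those with high energy in dye 3 gave 0.066, 0.32 and -0.012. Couple 3 was above 0 on both slides and couple 2 averaged -5.0e-05. The ratio was 0.23 ± 0.13 (SE, n = 3; turned 0.10), 0.34 without couple 2 and 0.12 without couple 3. Its spots gave nearly the same ratio, 0.24 ± 0.17 and 0.22 ± 0.11 by limma, but turned values of 0.011 and 0.20. They had the same sign on 4 of 6 slides, with a median difference of 0.26 log2.

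LAMA2, the alpha 2 laminin chain of the muscle basement membrane, also lacked couple 1. With high energy in dye 5 its values were -0.57, -0.16 and -0.12 in couples 2 to 4, and with high energy in dye 3 they were 0.20, -0.17 and -0.14. All but 1 of the 6 slides lay below 0. The 3 couple means of -0.19, -0.16 and -0.13 lay close together (SD 0.029), and their ratio was -0.16 ± 0.093 (SE, n = 3; turned -0.12). LAMA2 was 1 of 2 genes with 3 couples and had 1 sign in all of them, against 25.1% of the features with 3 couples. That closeness was not seen in its spots. In couple 3 with high energy in dye 5 they had -1.09 and 0.78, and in couple 4 they had 0.47 and -0.70 in one orientation and 0.72 and -1.01 in the other. Of the 6 slides, 2 had the same sign in both spots. The median difference between the spots was 0.77 log2, larger than in 95.6% of the named pairs measured on at least 4 slides.

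FN1, the fibronectin gene, was above 0 in couples 1 to 3 and below it in couple 4. Its values with high energy in dye 5 were 0.31, 0.19, -0.039 and -0.23 in couples 1 to 4, and with high energy in dye 3 they were 0.23, 0.35, 0.32 and -0.76. Couple 4 was low in both orientations. The ratio was 0.015 ± 0.17 (SE, n = 4; turned 0.028), and 0.23 without couple 4. On the slide at -0.76 its spots had -1.21 and -0.32. In couple 1 with high energy in dye 5 only the first spot had a value. Fitted alone by limma, the spots had ratios of -0.052 ± 0.19 and 0.023 ± 0.16, and they had the same sign on 5 of 7 slides.

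SPARC, which encodes a collagen-binding protein also called osteonectin, had the widest spread of the 8 genes, with an SD of 0.54 over couples. With high energy in dye 5 its values were 0.11, -0.020, -2.07 and 0.27 in couples 1 to 4, and with high energy in dye 3 they were -0.18, -0.50, -0.041 and 0.061. The value of -2.07 came from spot 864 alone, as 16 over 67 in lowest terms before centring, and the dye swap of the same couple had 0.054 on that spot. The ratio was -0.25 ± 0.28 (SE, n = 4; turned -0.071). It was -0.043 without couple 3, -0.38 without couple 1 and -0.42 without couple 4. Spot 863 was above 0 on 1 of its 7 slides and spot 864 on 5 of 6.

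DCN, decorin, a small proteoglycan that binds collagen fibrils, had the most even spots. With high energy in dye 5 its values were -0.24, -0.014, -0.22 and -0.21 in couples 1 to 4, and with high energy in dye 3 they were -0.23, 0.090, 0.099 and -0.83. It lay below 0 on 6 of 8 slides, lowest in couple 4. Its spots had the same sign on 7 of 8 slides, with a median difference of 0.13 log2, and on the slide at -0.83 both were low, at -0.84 and -0.82. The ratio was -0.20 ± 0.13 (SE, n = 4; turned 0.044), with limma's adjusted p at 0.996. It was -0.068 without couple 4 and -0.31 without couple 2. DCN was the 1 gene of the 8 still tested when values with a larger term under 512 were left out, with a ratio of -0.25.

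**Figure D2:**
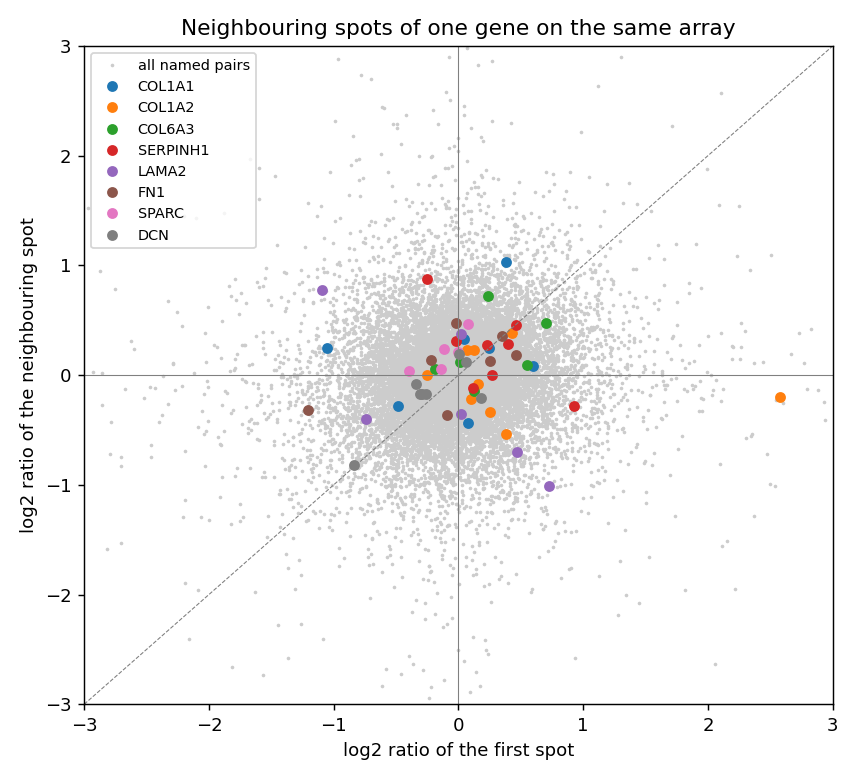
Log2 ratio of the first spot (x axis) against its neighbour of the same gene on the same slide (y axis), with grey points for all named pairs, colours for the 8 genes and the dashed line for equal values; 87 of 22146 points lie outside the axes, which end at 3 on either side. The points form a round cloud with little pull along the dashed line, and pairs of LAMA2 lie in the corners of opposite sign.

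The precision of these ratios can be read from neighbouring spots of the same symbol. Over all slides, 56.1% of 22146 named pairs had the same sign in both spots, and of the 56 pairs of the 8 genes 30 had it. Spearman's rho between neighbours, across genes within a slide, ran from 0.090 to 0.27. Over all pairs, the median difference between neighbours was 0.30 log2. Between the slides of a couple, limma's correlation over all features was -0.0362. As read here, slides of a couple were no more alike than slides of different couples. The slides of a couple always differ in dye orientation and the fit had no dye term, so dye effects can lower this correlation. Their part in it was not tested. Values were present for 123 of the 144 positions of the 18 spots. Each value was also written as the logarithm of the simplest whole-number fraction that gives it. The larger term of that fraction, which bounds the brightness of the spot from below if the signals were whole numbers, was under 512 for 57.7% of the values of the 8 genes and 55.4% of all values. Among neighbours with a larger term of at least 512 in both spots, Spearman's rho within a slide was higher, from 0.16 to 0.38.

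Among the 6 genes measured on all slides, 8 of 15 pairs correlated above 0, with a median r of 0.068 and a range from -0.59 to 0.88. FN1 and DCN had r = 0.88, and 0.52 without the 2 slides farthest from the median of FN1. SERPINH1 and SPARC had r = 0.82 both with and without the 2 slides farthest from the median of SERPINH1. These are descriptions over 8 slides from 7 samples, of which a couple's slides share both.

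Of 1922 other genes measured on all slides, SMIM7 (r = 0.97), CD3D (0.97) and EIF3H (0.97) followed the mean of the 6 genes most closely. That mean ran from -0.052 to 0.21 on 7 slides and was -0.52 on the slide of couple 3 with the low SPARC value. Without the 2 slides farthest from its median, the r were 0.51, 0.60 and 0.47. FAM3A (0.94) and RPS6 (0.92) were most like COL1A1, SQSTM1 (0.93) and ICAM3 (0.93) most like COL1A2, TWF2 (0.98) and POLR3GL (0.96) most like SPARC, and EXOC4 (0.91) and ODF2 (0.89) most like SERPINH1. With the 2 slides farthest from the median of COL1A1, COL1A2, SPARC or SERPINH1 left out in turn, r was 0.90 for FAM3A, 0.86 for RPS6, 0.58 for SQSTM1, 0.80 for ICAM3, 0.83 for TWF2, 0.33 for POLR3GL, 0.90 for EXOC4 and 0.58 for ODF2. The likeness of SMIM7, CD3D, EIF3H, SQSTM1, POLR3GL and ODF2, with r of 0.33 to 0.60 left, thus rested largely on the slides left out. Each gene was picked as among the highest of 1922 over only 8 slides. Such a search gives high r for unrelated genes too, and the slides kept had also served to pick the genes. No r was tested.

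**Figure D3:**
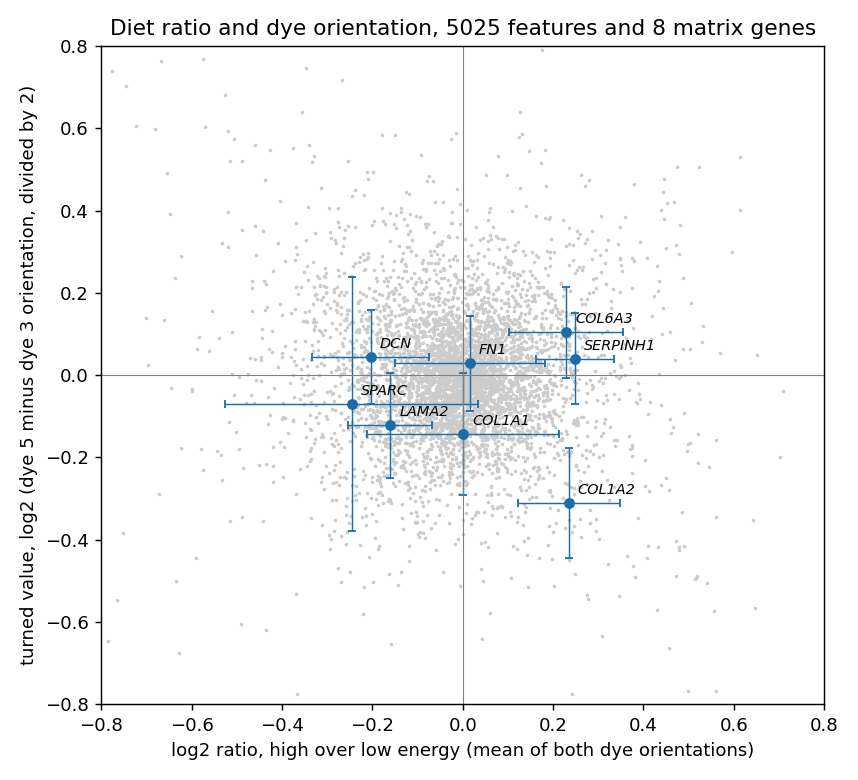
Ratio of high over low energy (x axis, log2) against the turned value (y axis, log2), with grey points for the 5025 features, of which 22 lie outside the axes, and blue points with SE bars for the 8 genes. Of the 8 genes, COL1A2 lies farthest from 0 on the y axis at -0.31, and COL6A3 and SERPINH1 lie to the right of 0 with turned values of 0.10 and 0.040.

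The turned value of COL1A2 was the largest in size of the 8. Those of the other 7 genes were within 1 SE of 0. Reversing the swapped slides put COL1A1, COL1A2 and DCN on the other side of 0, and left SERPINH1 at 0.040 ± 0.11 and SPARC at -0.071 ± 0.31.

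Around these genes, 7 lists of matrix genes held 193 symbols, 40 of them with a spot and 32 tested. Of the 32, 15 lay above 0 and 17 below (turned 16 and 16), with a median of -0.011, and 0 passed limma's adjusted threshold; 2 had an unadjusted p under 0.05, both below 0. Of 5 further collagen chains, 4 were above 0, with a median of 0.11, and also 4 when turned. The basement membrane chain COL4A1 had 0.15 ± 0.11 (SE, n = 3; turned 0.25), with 0.073 without couple 2 and 0.22 without couple 3. COL18A1, a collagen of basement membranes, had 0.12 ± 0.099 (SE, n = 4; turned 0.045), and 0.072 without couple 3. Enzymes and helpers of collagen synthesis had a median of 0.011 over 5 genes (turned -0.054). Among them the cyclophilin PPIB, a prolyl isomerase of the complex that modifies collagen in the endoplasmic reticulum, had -0.37 ± 0.093 (SE, n = 3; turned -0.054) with an unadjusted p of 0.012 in limma. Its 3 couple means were -0.37, -0.40 and -0.34, but the slides behind them were less even. High energy in dye 5 and in dye 3 gave -0.084 and -0.66 in couple 1. They gave -0.46 and -0.35 in couple 2, and -0.74 and 0.053 in couple 4. Couple 3 had a value only with high energy in dye 3, -0.038, and so gave no mean. With 1 measured array of a couple enough, the ratio of PPIB was -0.31. P4HB, a subunit of prolyl 4-hydroxylase, had 0.033 ± 0.11 (SE, n = 4; turned -0.10). SERPINH1 and PPIB, which both act on procollagen in the same compartment, thus had ratios of opposite sign, and neither passed.

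Of the 3 tested genes of laminins and basement membrane, LAMA4 had -0.067 ± 0.12 (SE, n = 4; turned -0.021), ranging from -0.14 to -0.027 when 1 couple was left out, and the proteoglycan perlecan, HSPG2, 0.14 ± 0.24 (SE, n = 3; turned -0.18; -0.19 without couple 4). Of 7 proteoglycans, glycoproteins and elastic fibre genes, 5 were below 0, and 4 when turned. VWA1, a matrix protein with von Willebrand A domains, lay below 0 on all 8 slides, as 1.46% of features did, and in all 4 couples, as 9.12% did. Its couple means were -0.50, -0.38, -0.73 and -0.13, and its ratio was -0.40 ± 0.13 (SE, n = 4; turned -0.069), with an unadjusted p of 0.023 in limma. It was -0.71 when values with a larger term under 512 were left out and -0.68 as the mean of spots fitted singly. A spot was fitted singly only if it had both orientations in at least 3 couples. The -0.68 thus need not rest on all 4 spots of VWA1. SPARCL1, a relative of SPARC, had 0.15 ± 0.10 (SE, n = 4; turned -0.15), and 0.058 without couple 4.

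Of 6 remodelling genes, 5 were below 0, but turned, 5 were above it. The exception in the first reading was TIMP2, an inhibitor of matrix metalloproteinases, with 0.13 ± 0.085 (SE, n = 4; turned 0.11) and values above 0 on 7 of 8 slides. The lysosomal protease CTSB had -0.16 ± 0.14 (SE, n = 4; turned 0.15), with couple 1 at -0.52 and the other couples between -0.091 and -0.039. It was -0.071 without couple 1 and -0.63 when values with a larger term under 512 were left out. Of 5 matrix receptors and dystrophin complex genes, 3 were above 0 (2 when turned), among them DMD, dystrophin, at 0.12 ± 0.098 (turned -0.014; 0.075 without couple 3) and the sarcoglycan SGCA at 0.047 ± 0.092 (turned 0.0069), each in 4 couples. SMAD3, which carries TGF-beta signals, had -0.026 ± 0.10 (SE, n = 4; turned -0.098).

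**Figure D4:**
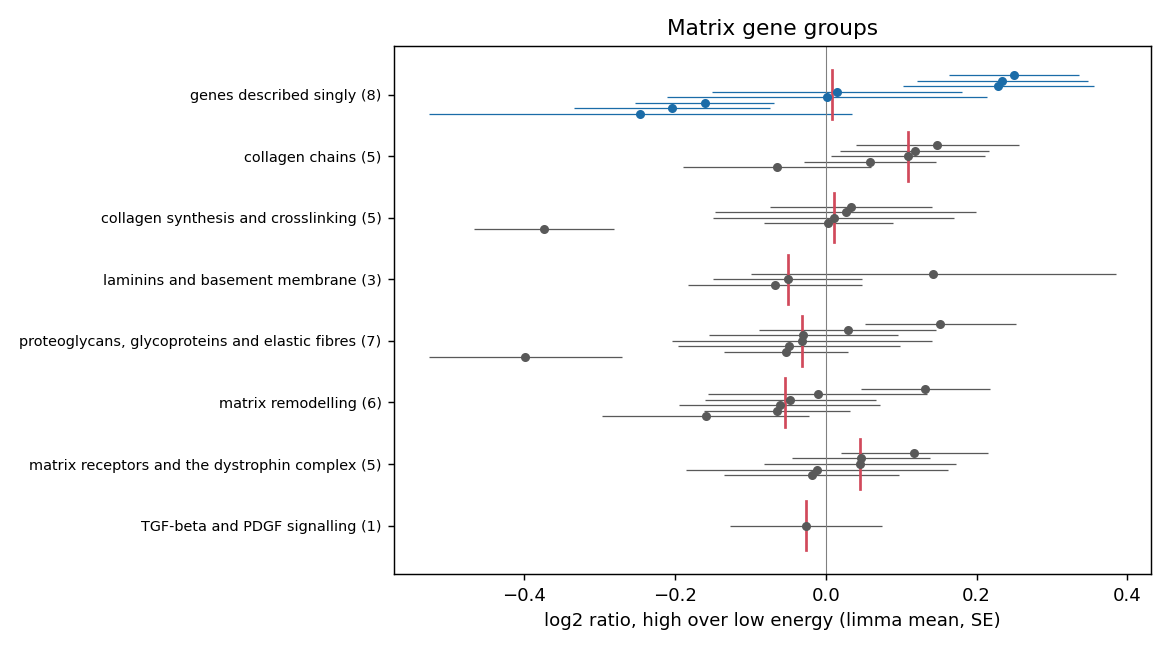
Log2 ratio of high over low energy with SE (x axis) for each tested gene, in rows for the 8 genes described singly (blue) and for 7 lists of other matrix genes (grey), with the number of genes in brackets and a red line at each row's median. The 8 genes spread to both sides of 0, and PPIB and VWA1 are the leftmost grey points at -0.37 and -0.40.

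Markers of the cell types that whole muscle can hold were set beside these ratios, and their part in them was not tested. Of 10 fibroblast markers 5 had a spot and 4 were tested: VIM, S100A4, GSN and MFAP5. The others, among them PDGFRA, DPT, LUM and POSTN, were not. Of the 4 tested, 2 lay above 0 and 2 below, with a median of -0.016 (turned -0.049) and couple medians from -0.059 to 0.0053. All 12 muscle fibre markers were tested, 4 above 0 and 8 below, with a median of -0.062 (turned 0.0083). Their ratios ran from -0.32 to 0.37. At an unadjusted p under 0.05, limma gave 1 of them above 0 and 2 below, and 3.78% of all features. The 4 tested vessel markers were all above 0, but 3 of them below it when turned, with a median of 0.19 (turned -0.13) and couple medians of 0.14, 0.072, -0.079 and 0.38. The 6 immune and 6 adipocyte markers each had 3 above 0 and 3 below, with medians of 0.076 (turned 0.020) and -0.015 (turned -0.063). The 4 blood markers had a median of -0.0018 (turned 0.099, all 4 above 0). No marker passed limma's adjusted threshold.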

How the data were processed

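Muscle RNA came from a modified Chomczynski extraction, its cDNA carried Cy3 or Cy5, and the scanner was a ScanArray LITE, per the series' design text. The digits 3 and 5 in the labels were taken as the dyes. The authors deposited 1 value per spot and array, read here as a log2 ratio: 6.88% to 20.7% of an array's values were base 2 logarithms of fractions whose smaller term was under 60, against at most 2.27% in base e or 10. The sources used here do not say how the authors corrected background, filtered spots or normalized. An array had values at 77.6% to 94.4% of its 9984 spots, and the median of the larger term was 187 to 607. The number of arrays limits precision.

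Arrays were centred on their medians. Spots with the same single symbol were averaged (6610 spots have 1 symbol, 106 several, 3268 none), and slides of a couple were averaged to 1 replicate, since the labels give both the same samples. Features with both orientations in at least 3 couples, 5025 with 2556 genes, were fitted with limma 3.58.1 (R 4.3.3; lmFit and eBayes, two-sided, Benjamini-Hochberg), with couples of one high energy sample as a block (correlation fixed at 0.5). One alternative left out values whose larger term is under 512, a lower bound that need not mean a dim spot. The annotation's accessions are human; symbols were kept and no coordinates used. The code was tested on simulated data. The genes and lists were chosen with earlier results of these data known. Named beside the 8 genes were the 2 genes with the smallest p of each list and the genes most alike over 8 slides: 3 for the mean, and 2 each for COL1A1, COL1A2, SPARC and SERPINH1. Exceptions named after their values were seen are spots 863, 864 and 6117 to 6120 and the fibroblast markers. Alternatives are given in the closing section.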

Additional observations from a re-analysis of the deposited data

Results flagged for a closer look

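COL1A2 was singled out because its means over spots were all below 0 with high energy in dye 5 and all above it with high energy in dye 3. Its turned value was -0.31, and limma's test of that difference gave an adjusted p of 0.998. With the median over spots, the turned value was -0.15. Groups of 4 values were taken from the 8 genes and the genes with the smallest p of each matrix list. Of 49 such groups, 8 had a value far from the other 3, with a gap of at least 0.83 of the range. A rate of about 1 in 20 would hold for independent, normally distributed groups. The groups here share slides, so the count cannot be set against that rate. FN1 had -0.49 in couple 4 and, with high energy in dye 3, -0.76 in that couple. SPARC had -2.07 in couple 3 with high energy in dye 5. DCN had -0.014 in couple 2 with high energy in dye 5, where the other 3 couples lay between -0.24 and -0.21. COL18A1 had 0.29 in couple 3 and SPARCL1 0.37 in couple 4. CTSB had -0.52 in couple 1, and -0.64 there with high energy in dye 5.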

How the results depend on the processing

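No feature passed in any of the 20 alternative settings for the ratio or the 12 for the turned value. For the ratio, 190 features had an unadjusted p under 0.05 in limma. Independent couples gave 310, a robust fit 343 and high energy in dye 5 alone 99. The 8 slides fitted with the couple as replicate block gave 353 (within-couple correlation -0.0362, 0 passing). With values whose larger term is under 512 left out, 107 of 1472 had such a p. Leaving out 1 couple gave 107 to 284. SERPINH1, COL6A3, LAMA2 and SPARC kept their sign in every setting that gave them a value. With larger terms under 512 left out only DCN had a value, and on all 8 slides COL6A3 and LAMA2 had none. COL1A1 was -0.00061 with a running median, -0.023 with independent couples or the replicate block, -0.14 turned and -0.14 in dye 5 alone. FN1 was -0.0057 with couples 1 and 3 averaged, -0.014 by single spots and -0.013 in dye 3 alone. COL1A2 was -0.31 turned and -0.076 in dye 5 alone, and DCN 0.044 turned. Turned, P4HB was -0.10, HSPG2 -0.18, SPARCL1 -0.15, CTSB 0.15 and DMD -0.014; in dye 5 alone P4HB was -0.070 and HSPG2 -0.035; in dye 3 alone COL4A1 was -0.11 and SMAD3 0.071. SMAD3 was 0.076 without larger terms under 512 and 0.019 in the robust fit. The median of the 8 genes, 0.0083, became 0.090 in the robust fit, -0.11 in dye 5 alone and -0.072 to 0.074 when 1 couple was left out. That also gave -0.12 to 0.15 for COL1A1, -0.095 to 0.23 for FN1, -0.018 to 0.080 for P4HB, -0.19 to 0.33 for HSPG2, -0.012 to 0.074 for SGCA and -0.063 to 0.063 for SMAD3. Turned values then ran from -0.30 to 0.029 for COL1A1, -0.0088 to 0.098 for SERPINH1, -0.19 to 0.0092 for LAMA2, -0.22 to 0.16 for SPARC, -0.075 to 0.076 for FN1 and -0.068 to 0.086 for DCN. The cause of these changes was not tested. The number of arrays and disagreement of neighbouring spots limit what can be seen.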
